A study of Mus musculus with 4 samples.

Results

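The TOX family genes Tox, Tox2 and Tox4 were followed in RNA-seq of mouse CD4+ T cells. All 3 were found by their symbols among the 11027 genes of the deposited tables, and all 3 passed the filter on low counts. Naive CD4+ T cells were taken from the spleen and the lymph nodes of wild type C57BL/6 mice aged 7 to 8 weeks. They were activated, infected with a retrovirus in neutral conditions and sorted for GFP, then cultured. In 2 groups the virus carried Tox2 and GFP, and in the 2 control groups GFP only. Antibodies that block IFN-gamma, IL-2 and IL-4 were present in the Th0 culture. The Tfh-like medium had the same antibodies plus the cytokine IL-6. All 4 groups shared the infection, the sort and the 3 antibodies, and each group was 1 library. Whether cells of several mice were pooled is not given in the sources used here.

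TOX proteins carry an HMG box, a DNA-binding fold shared with TCF-1, LEF-1, the SOX factors and the HMGB chromatin proteins. Tox is needed for CD4+ T-cell development in the thymus, is induced by calcineurin and NFAT signalling and sustains exhausted T cells. Tox2 is expressed in T follicular helper (Tfh) cells, the helper cells of B-cell follicles, and the study asked how it acts in Tfh differentiation. Tox4 is broadly expressed and is a subunit of the PTW/PP1 phosphatase complex, which acts on chromatin and RNA polymerase II.

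Tox2 lies on chromosome 2 (GRCm38, 163203125 to 163324170) on the plus strand and has 5 annotated transcripts. No other annotated gene overlaps it. The labels name GFP alone for the control virus, so Tox2 transcripts in those libraries are read here as coming from this locus, and the 250 bases before its first RefSeq start (GRCm38.p6, plus strand, chr2:163202877-163203126) are shown, with matches to the GC box GGGCGG on either strand in capitals.
Tox2 upstream: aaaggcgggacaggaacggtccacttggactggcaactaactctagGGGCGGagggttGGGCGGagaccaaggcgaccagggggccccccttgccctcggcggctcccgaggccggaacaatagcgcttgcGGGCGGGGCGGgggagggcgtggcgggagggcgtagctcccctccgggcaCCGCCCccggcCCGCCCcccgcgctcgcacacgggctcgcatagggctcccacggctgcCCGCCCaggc
This window held 7 GC box matches and 27 CpG dinucleotides, where the median of 32851 windows of the same kind was 6 CpG, and 32.7% of windows held a GC box. The STAT motif TTCNNNGAA occurred on either strand in 7.02% of windows. For the AP-1 motif TGANTCA this share was 6.75%. The TCF and LEF motif CTTTGA was found in 13.8%. A TATA box, searched as TATAAA, was found in 12.4%. None of these 4 motifs occurred in the window shown. RefSeq has 5 start entries for Tox2, and counts per gene do not tell which start was used. The windows of the other starts differ: the overlapping windows of the fourth and the fifth entry each hold 1 TCF and LEF match, 1 TATA box and 1 GC box, and that of the third entry holds 0 GC boxes. Tox4, on chromosome 14 (52279146 to 52296401, plus strand), shares 933 exon bases with Mettl3 and 195 with Rab2b on the opposite strand. Mettl3 had 399 to 502 counts and Rab2b 43 to 97, against 2158 to 2559 for Tox4. Tox, on chromosome 4 (6686353 to 6991557, minus strand), shares 260 exon bases with the antisense gene Gm11802. How the authors treated strand is not given in the sources used here, so reads from these shared bases cannot be assigned to one gene.

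Total counts ran from 13015283 to 13673774. In the CD4+ T-cell list 10 of 10 markers were measured, and Cd4 had 14423 to 24305 counts. Markers of other cells were low: the summed FPKM of the 2 B-cell markers measured of 8 listed was 0.887 to 2.91, that of 3 of 11 myeloid and dendritic markers 0.683 to 1.20, and that of 1 of 6 erythroid markers 0.0714 to 0.724. None of 5 NK-cell markers was found by symbol among the 11027 genes. The 3 measured of 4 CD8+ T-cell markers summed, for the GFP and the Tox2 virus, to 11.9 and 11.4 FPKM in Th0 and to 28.9 and 24.4 in Tfh-like. Cd8a was also not found by symbol, and Cd8b1 had 135 and 138 counts in Th0 and Tfh-like with GFP and 127 and 206 with Tox2. The CD8+ sums moved with the culture. With GFP this came through Themis (4.79 FPKM in Th0, 17.8 in Tfh-like) and Crtam (1.76 and 5.40), while Cd8b1 stood at 5.35 and 5.71. In the Tox2 libraries all 3 were higher in Tfh-like, Cd8b1 at 8.36 FPKM against 4.97. Whether the share of CD8+ cells differed was not tested. The B-cell sum moved through Ebf1 (20 and 380 counts with GFP, 118 and 385 with Tox2). Cd79a, the other B-cell marker measured, was lower in Tfh-like (19 and 10 counts with GFP, 24 and 13 with Tox2). What part these marker sums have in the differences of the TOX genes was not tested.

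Levels of the 3 genes are given first as FPKM, the scale on which genes can be set side by side, with the exact 95% Poisson interval of the count, which covers counting error only. In Th0 with GFP the order was Tox4 at 18.3 FPKM (17.5 to 19.0), Tox at 11.2 (10.7 to 11.8) and Tox2 at 2.49 (2.10 to 2.93). In Tfh-like with GFP the order was Tox4 at 20.5 (19.7 to 21.4), Tox2 at 15.4 (14.3 to 16.4) and Tox at 6.77 (6.32 to 7.24). Tox and Tox2 therefore changed places between the GFP libraries: Tox was 4.52 times Tox2 in Th0, and Tox2 was 2.27 times Tox in Tfh-like. Neighbours in either order had intervals that did not overlap. With 1 library per group the spread between cultures of one kind was not measured.

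In Th0 with the Tox2 virus Tox2 stood at 602 FPKM (596 to 608), and in Tfh-like with the Tox2 virus at 571 (565 to 577). Only 28 and 34 of the 11027 genes had a higher FPKM in those libraries, against 8027 and 3165 in the GFP libraries of the same cultures. By raw count 10 and 11 genes stood above Tox2 with the virus. In these same libraries Tox4 lay at 21.4 FPKM (20.5 to 22.2) in Th0 and at 20.9 (20.1 to 21.8) in Tfh-like. Tox lay at 11.5 FPKM (10.9 to 12.1) and 7.51 (7.04 to 8.00).

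**Figure D1:**
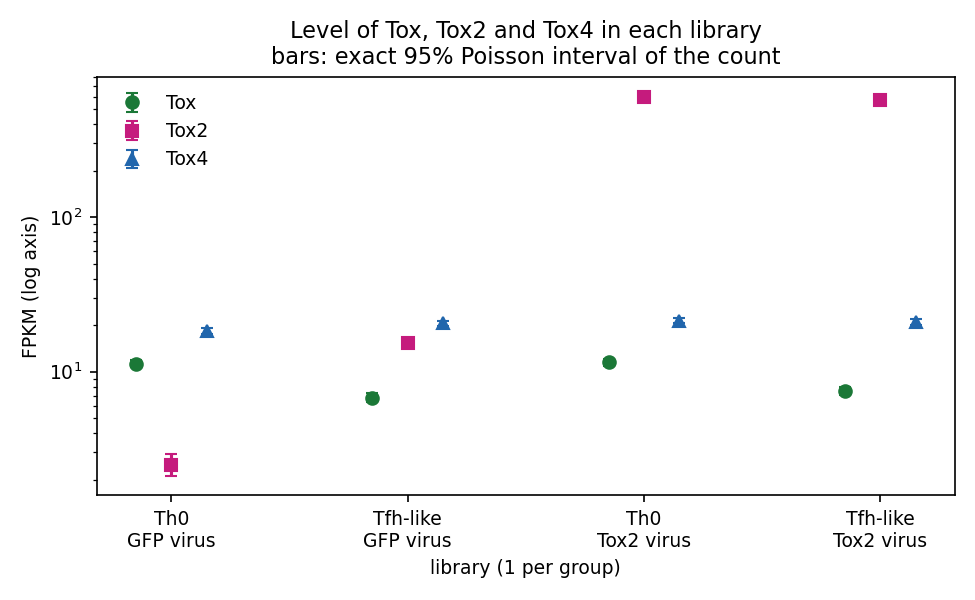
FPKM (log axis) of Tox, Tox2 and Tox4 in each of the 4 libraries, with exact 95% Poisson intervals of the counts as bars. Tox2 runs from 2.49 in Th0 with GFP to 602 in Th0 with the Tox2 virus, while Tox4 stays between 18.3 and 21.4 and Tox between 6.77 and 11.5.

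Summed over the 3 genes, the family level of the GFP libraries was 32.0 FPKM in Th0 and 42.7 in Tfh-like. Tox2 made up 7.78% of it in Th0 and 36.0% in Tfh-like, Tox 35.1% and 15.9%, and Tox4 57.1% and 48.1%. Tox and Tox4 together had 29.5 and 27.3 FPKM, so the higher family sum in Tfh-like came from Tox2. With the Tox2 virus the sums were 635 and 599 FPKM, of which Tox2 made up 94.8% and 95.3%. The authors' FPKM divides by the annotated exon length, which is 3401 bases for Tox2, 7609 for Tox and 6950 for Tox4. The insert of the virus is not given in the sources used here, and coding sequence is 58.2% of the Tox2 exon bases. If the viral transcript holds a shorter stretch of Tox2 than the gene model, FPKM understates its level per length.

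**Figure D2:**
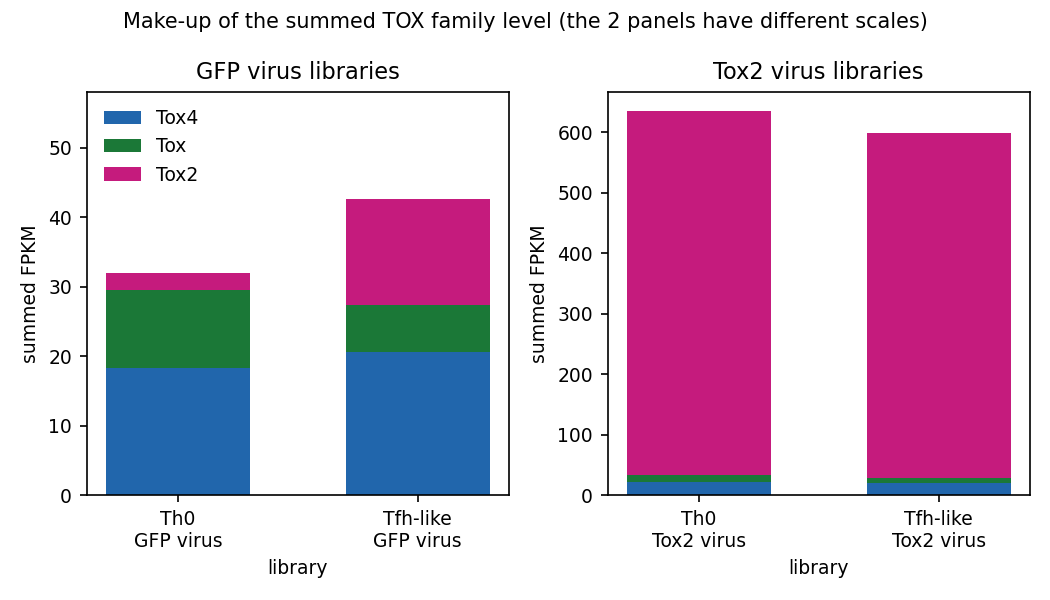
Summed FPKM of the 3 genes, stacked by gene, in the GFP libraries (left) and the Tox2 libraries (right, on a larger scale). With GFP the Tox2 part is 7.78% in Th0 and 36.0% in Tfh-like, and with the Tox2 virus it is 94.8% and 95.3%.

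The virus contrast asked what forced Tox2 expression did to the family. Tox2 itself checks the labels, and its counts followed the virus named for each library: 144 (Th0) and 851 (Tfh-like) with the GFP virus, and 35297 (Th0) and 32246 (Tfh-like) with the Tox2 virus. These groups did not overlap. Counts were then scaled by library size and TMM factor to CPM, which sets libraries side by side. On this scale Tox2 rose from 10.7 to 2541 CPM in Th0, a difference of 2530 CPM, and from 65.2 to 2409 in Tfh-like, a difference of 2344. The level of the GFP library equalled 0.422% of that of the Tox2 library in Th0 and 2.71% in Tfh-like. The Th0 pair had a log2 fold of 7.87, with an exact 95% counting interval from 7.65 to 8.14, and the Tfh-like pair one of 5.20, from 5.11 to 5.31. The fold ranked above all 10960 tested genes in Th0 and below 1 gene in Tfh-like. The Tfh-like fold minus the Th0 fold was -2.67 on the log2 scale (-2.92 to -2.41), and the levels above show that the GFP libraries differed 6.08-fold while the Tox2 libraries differed by a ratio of 0.948. A difference of the folds of at least 2-fold was seen in 3.73% of genes. No replicate tests that difference.

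In an additive model of virus and culture over the 4 libraries (edgeR quasi-likelihood), the Tox2 fold over both cultures was 6.42 (SE 0.64, adjusted p = 0.00563). The virus effect passed in 1 of the 3 TOX genes, Tox2, which the virus itself carries, and in 6.81% of all genes tested. This call therefore checks the labels and is no response of the family. The only residual degree of freedom of this model (1) is how far the virus fold differs between the cultures, so its p-values do not measure the spread between replicates. "Rose" and "fell" refer below to this test.

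Tox did not pass for the virus. Th0 cells had 1455 Tox counts with the GFP virus and 1508 with the Tox2 virus, and Tfh-like cells 839 and 949. The log2 folds with the virus were 0.00 in Th0 (-0.10 to 0.11) and 0.14 in Tfh-like (0.01 to 0.28), and the joint estimate was 0.07 (SE 0.10, edgeR adjusted p = 0.702). For Tox4 the GFP and Tox2 virus gave 2158 and 2559 counts in the Th0 culture, and 2326 and 2414 in the other. Its log2 folds were 0.20 (0.12 to 0.28) and 0.02 (-0.06 to 0.10), with a joint estimate of 0.11 (SE 0.10, edgeR adjusted p = 0.548). The Tox4 interval in Th0 and the Tox interval in Tfh-like exclude 0 for counting error alone. The folds of both genes lay inside the middle 95% of all tested genes. That range ran from -0.88 to 1.13 in Th0 and from -0.89 to 1.11 in Tfh-like. A missed threshold does not show that the virus left these genes as they were. Of the 3 members only Tox2 was 2-fold apart with the virus, in either culture, as were 4.74% of all tested genes in Th0 and 4.75% in Tfh-like.

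**Figure D3:**
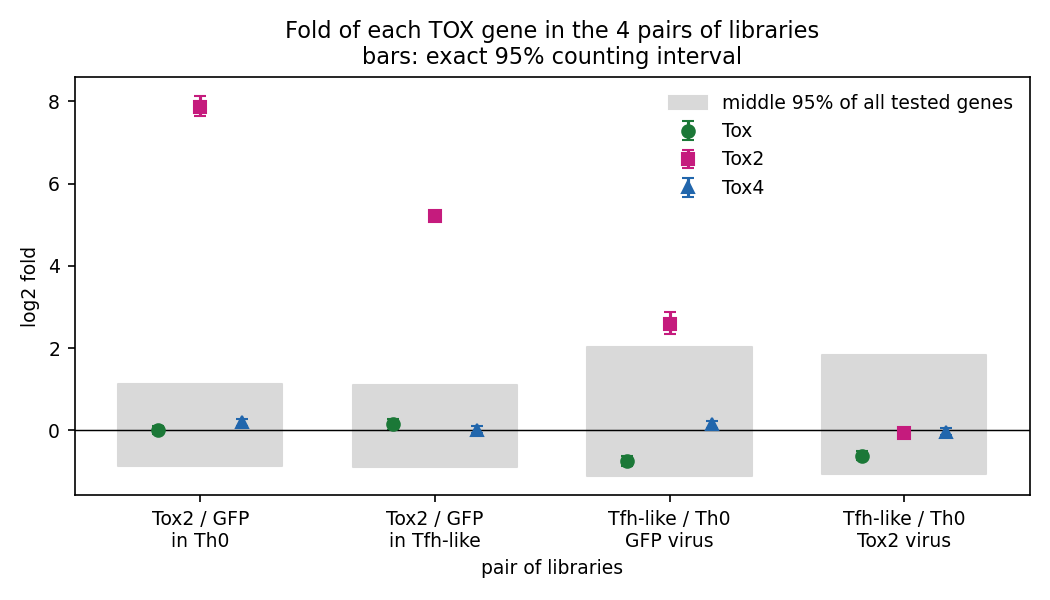
Log2 fold of Tox, Tox2 and Tox4 in the 4 pairs of libraries, with exact 95% counting intervals as bars and the middle 95% of the 10960 tested genes in grey. Tox2 stands above the grey range in both virus pairs and, at 2.59, in the culture pair with GFP, and Tox is at -0.75 and -0.61 in the culture pairs.

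The culture contrast compared cells with and without IL-6 at either virus. Tox fell, with 108 and 64.3 CPM in Th0 and Tfh-like with GFP and 109 and 70.9 CPM with the Tox2 virus. Both Th0 libraries were above both Tfh-like libraries, and the share of all genes with this order was not counted. The log2 folds were -0.75 (-0.88 to -0.63) and -0.61 (-0.73 to -0.50), and over both viruses -0.68 (SE 0.10, edgeR adjusted p = 0.00573). This is a ratio of 1.68 with GFP and 1.53 with the Tox2 virus, and neither pair was 2-fold apart. With GFP 5.71% of tested genes had a lower log2 fold than Tox, and with the Tox2 virus 7.16%. In the additive test 24.2% of genes passed for the culture, 14.3% as higher and 9.96% as lower, or 1564 and 1092 genes. Without TMM, scaled by total counts only, the split was 1500 higher and 1649 lower. In bulk RNA, fewer cells expressing Tox and less Tox RNA per cell cannot be told apart.

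Tox2 was higher in Tfh-like than in Th0 with GFP, by 54.5 CPM. The log2 fold was 2.59 (2.35 to 2.87), and 147 of 10960 genes had a higher one. It was 2-fold apart in this pair, as were 10.9% of genes, 7.78% as higher. In the libraries with the Tox2 virus, where viral and endogenous transcripts are counted together, Tox2 was lower in Tfh-like by 0.08 (log2 fold -0.08, counting interval -0.10 to -0.05), a difference of -132 CPM. This difference is larger in size than the 54.5 CPM between the GFP libraries, so the endogenous level with the Tox2 virus cannot be read from these counts. The joint estimate was 1.07 (SE 0.55, edgeR adjusted p = 0.210) and did not pass. In the pair with the Tox2 virus 9.43% of genes, and none of the 3 members, were 2-fold apart.

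Tox4 did not pass for the culture. Its level was 161 and 178 CPM in Th0 and Tfh-like with GFP and 184 and 180 CPM with the Tox2 virus. The Th0 library with GFP was the lowest, and the FPKM intervals of the other 3 libraries overlapped. The log2 folds were 0.15 (0.07 to 0.24) and -0.03 (-0.11 to 0.05), with a joint estimate of 0.06 (SE 0.10, edgeR adjusted p = 0.719).

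The genes whose pattern over the 4 libraries was most like each member were ranked by the root mean square difference of centred log2 CPM, over 9631 genes with a mean CPM of at least 5. With 4 libraries this describes likeness only. Nearest to Tox were Fkbp3, which encodes an FK506-binding protein (0.03), Cd40lg, the CD40 ligand by which helper T cells signal to B cells (0.03), and Ppcdc, a coenzyme A synthesis enzyme (0.03). Cd40lg had 1204 and 728 counts in Th0 and Tfh-like with GFP and 1263 and 823 with the Tox2 virus. In all, 71 genes lay within 0.1 of Tox. Nearest to Tox4 were Zfp335 (0.0030), the histone demethylase gene Phf8 (0.0037) and Zfp319 (0.011), and 1241 genes lay within 0.1. No gene lay within 0.5 of Tox2. The nearest were Susd2 (1.15), the potassium channel subunit Kcnmb1 (1.59) and Dkk3, a secreted protein of the Dickkopf family (1.72). Susd2 had 14 and 22 counts with GFP and 1342 and 377 with the Tox2 virus, in Th0 and Tfh-like.

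Other HMG-box genes were read beside the family. Of 36 listed, 24 were measured. With the culture 7 fell and 2 rose, and with the virus 3 rose and 0 fell in the edgeR test, with 1 lower by limma-voom and 0 by DESeq2. Of all tested genes 14.3% rose and 9.96% fell with the culture, and 4.07% rose and 2.74% fell with the virus. With total counts only, and by limma-voom, 5 of the list rose with the virus. In edgeR 1 fell with total counts only, and 1 with RLE scaling, an alternative to TMM. In the edgeR virus test 10 of the 24 had an unadjusted p under 0.05 in either direction. The list's median log2 fold was -0.12 for the culture and 0.12 for the virus, beside -0.01 and 0.00 over all tested genes. The culture median was -0.19 with total counts only, and the virus median 0.07 with the length trend removed. Like Tox, Sox4 and Sox12, which encode SOX factors of group C, were lower in Tfh-like. Sox4 fell by 1.98 (log2 fold -1.98, SE 0.27), from 203 to 76 counts with GFP and from 631 to 109 with the Tox2 virus. Sox12 fell by 1.33 (log2 fold -1.33, SE 0.16), with 393 and 179 counts and 516 and 167. Sox5, a SOX factor of group D, rose by 3.30 (SE 0.17), from 45 to 445 counts with GFP and from 47 to 431 with the Tox2 virus. Its Tfh-like libraries stood clear of its Th0 libraries at either virus, and the share of all genes separated in this way was not counted. Tcf7l1, another gene of the TCF/LEF group, rose by 1.23 (SE 0.24, edgeR adjusted p = 0.0143), but not with DESeq2 (adjusted p = 0.0975).

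With the virus, Tcf7, which encodes TCF-1, rose by 1.14 (SE 0.10) from 6497 to 14605 counts in Th0 and from 6362 to 14556 in Tfh-like. Hbp1, an HMG-box repressor of cell cycle genes, rose by 0.72 (SE 0.11) from 444 to 819 and from 487 to 758 counts. Per length, Tcf7 was at 146 and 149 FPKM in the GFP libraries, above each TOX gene there. With the Tox2 virus it was at 323 and 334 FPKM, below Tox2.

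**Figure D4:**
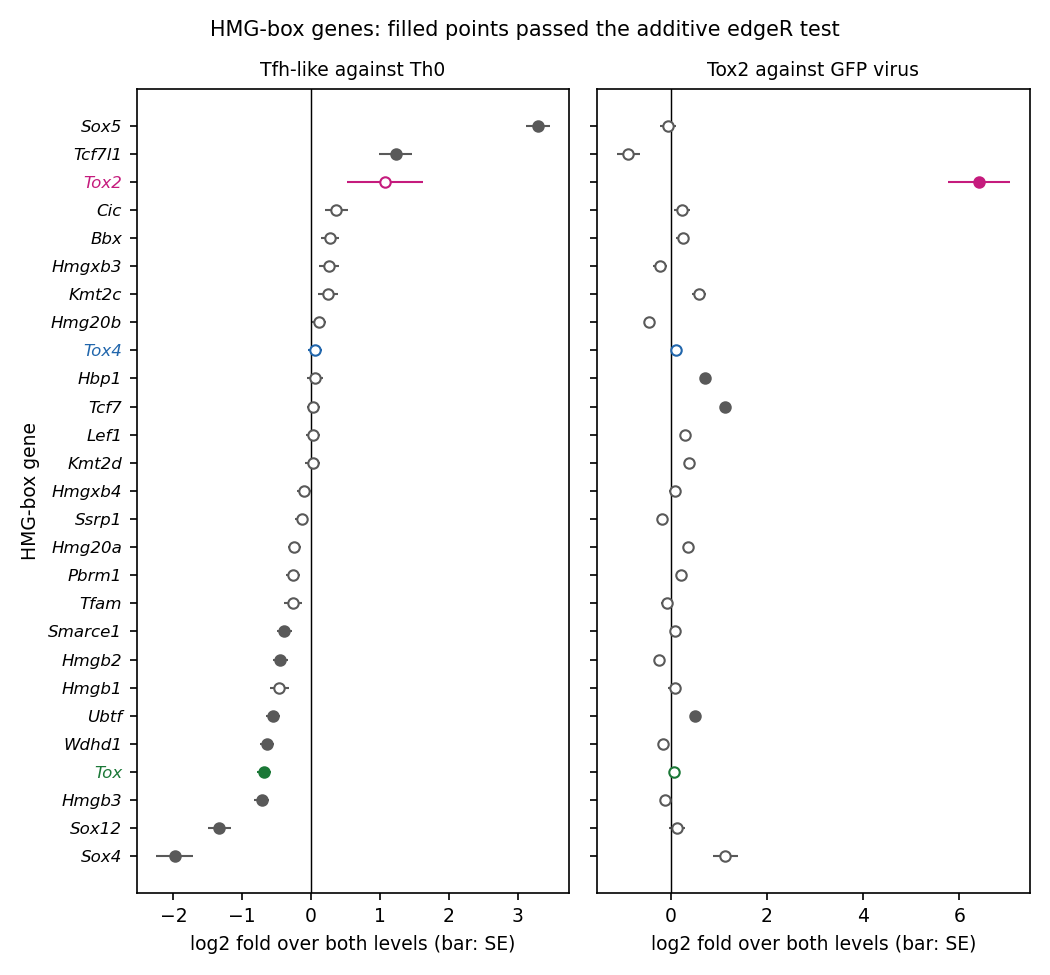
Log2 folds of 24 HMG-box genes and the 3 TOX genes in the additive edgeR fit for the culture (left) and the virus (right), with SE as bars and filled points for genes that passed. Tox stands at -0.68 for the culture between Wdhd1 and Hmgb3, and Tox2 at 6.42 for the virus stands far from Tcf7 at 1.14, the next gene that passed.

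Known partners of Tox4 and Tox were read in the same way. Of the 5 PTW/PP1 partners of Tox4, 0 passed for the virus in edgeR (1 at an unadjusted p under 0.05, 1 by limma-voom and 0 by DESeq2), where 6.81% of all genes passed. For the culture 1 of the 5 passed, where 24.2% of all genes did. Ppp1cc, a catalytic subunit of protein phosphatase 1, rose with the culture by 0.36 (SE 0.10, edgeR adjusted p = 0.0398), a call lost with DESeq2 (adjusted p = 0.107) and with total counts only (0.0652). Ppp1r10, which encodes the scaffold PNUTS, had 2172 and 1885 counts in Th0 and Tfh-like with GFP and 2178 and 1757 with the Tox2 virus. Wdr82, the WD-repeat subunit, had 2629 and 2335 and 3050 and 2526. Both are named as core subunits, outside the rule for named genes. The list's medians were -0.09 for the virus and -0.17 for the culture. The virus median was 0.03 with the length trend removed.

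Of the 10 genes of the HBO1 (Kat7) acetyltransferase complex, a known partner of Tox, 0 passed for the virus (0 at an unadjusted p under 0.05, 0 by limma-voom and 0 by DESeq2) and 3 fell and 0 rose with the culture. Over all genes 6.81% passed for the virus, and 9.96% fell with the culture. Jade2, a scaffold subunit, fell by 0.68 (log2 fold -0.68, SE 0.11) and the small subunit gene Meaf6 by 0.57 (log2 fold -0.57, SE 0.13, edgeR adjusted p = 0.0220, 0.0529 with DESeq2). The medians were 0.13 for the virus, or 0.03 with the length trend removed, and -0.24 for the culture. With DESeq2 1 of the 10 fell with the culture.

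The list of calcineurin and NFAT genes, read for the route that induces Tox, held members in both directions. Of 12 listed genes 11 were measured, 2 rose and 3 fell with the culture, and 2 rose with the virus. In either direction 24.2% of all genes passed for the culture and 6.81% for the virus. Nfatc1, which encodes NFATc1, fell with the culture by 0.72 (log2 fold -0.72, SE 0.10), from 8097 to 4540 counts with GFP and from 10472 to 6451 with the Tox2 virus. Rcan1, a calcineurin inhibitor that NFAT induces, fell by 0.85 (log2 fold -0.85, SE 0.14), with 825 and 373 counts and 943 and 594. In both genes, as in Tox, both Th0 libraries were above both Tfh-like libraries, an order whose share over all genes was not counted. A link between these genes and Tox was not tested. Nfatc2 rose by 1.06 (SE 0.12), and Ppp3cc, a catalytic subunit of calcineurin, by 1.88 (SE 0.10). With the virus Nfat5, which responds to osmotic stress, rose by 0.80 (SE 0.11) and Nfatc3 by 0.46 (SE 0.10, edgeR adjusted p = 0.0419). Nfat5 was also the remaining gene that fell with the culture (log2 fold -0.38, edgeR adjusted p = 0.0493), named after its value was seen. With DESeq2 2 and not 3 genes fell with the culture. The Nfatc3 call was lost with DESeq2 (adjusted p = 0.0627) and with the length trend removed (0.0978). The medians were 0.09 for the virus and 0.06 for the culture, and the culture median was -0.01 with total counts only. The virus median was 0.04 with the length trend removed.

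In the list of genes linked to TOX in exhausted T cells, 12 of 20 measured genes (24 listed) rose with the virus and 0 fell in edgeR, where 4.07% of all genes rose and 2.74% fell. DESeq2 also gave 0 lower, and limma-voom 1. In edgeR 1 was lower with RLE scaling and 2 with total counts only. Of the 20, 16 had an unadjusted p under 0.05 in edgeR in either direction. The median log2 fold was 0.83. The largest were Ikzf2, which encodes Helios, at 3.31 (SE 0.28), and the T-box factor gene Eomes, whose counts went from 85 to 284 in Th0 and from 6 to 48 in Tfh-like (edgeR adjusted p = 0.0211). Earlier results of these data already showed higher transcripts of some inhibitory receptors, so the count is no independent support. Among such receptors Pdcd1, Lag3, Tigit and Cd160 rose here with the virus. Ctla4 did not pass, and Btla of the Tfh list and Cd5 of the CD4+ list fell. These receptors were named here after their values were seen. Havcr2, Cd244a, Entpd1 and Cx3cr1, also in the exhaustion list, were not found by symbol among the genes of the data. With the culture 4 of the 20 rose and 6 fell, at a median of 0.00, or -0.07 with total counts only. Over all genes 14.3% rose and 9.96% fell with the culture. The T-box gene Tbx21 rose by 5.40 (SE 0.32) and Batf, an AP-1 factor gene, by 2.63 (SE 0.22). Eomes fell by 2.86 (log2 fold -2.86, SE 0.32) and the nuclear receptor gene Nr4a3 by 2.11 (log2 fold -2.11, SE 0.16).

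Beside the same 4.07% higher and 2.74% lower over all genes, the 24 measured of 25 Tfh genes had 6 higher and 5 lower with the virus, from Cxcr5 at 1.94 and Bcl6 at 1.45 to Irf4 at -1.09 and Cd200 at -1.16, and with DESeq2 3 and not 5 were lower. With the culture, where 14.3% of all genes rose and 9.96% fell, 10 rose, led by Il21 (8.28) and Maf (3.28), and 8 fell, with Id3 (-0.98) and Btla (-1.21) the lowest. In the IL-6 and STAT3 list 16 of 20 rose and 1 fell with the culture, beside the same shares of all genes, at a median of 1.61. Il23r (9.24) and Il21 (8.28) were the highest, and Il6st (-0.64) was the one that fell. With the virus, where 4.07% of all genes rose and 2.74% fell, 3 rose, led by Il6st (1.40) and Socs3 (1.01), and 3 fell, with Il17a (-2.78) and Il17f (-2.92) the lowest. The other was Il6ra at -0.53 (edgeR adjusted p = 0.0499), named after its value was seen. DESeq2 called Il17f alone of these 3. It gave Il17a a log2 fold of -3.92 (DESeq2 adjusted p = 0.0561). The lists share genes, so their counts are not separate results. Bcl6, Cxcr5, Pdcd1 and Tcf7, which rose with the virus, stand in both the Tfh and the exhaustion list. Tcf7 is also counted among the HMG-box genes. Il6ra, Il6st, Batf, Maf and Il21 stand in both the Tfh and the IL-6 list.

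Among the 10 CD4+ T-cell markers, 2 rose and 1 fell with the virus, which 6.81% of all genes passed: Cd247, the zeta chain of the receptor complex, by 1.04, Cd4 by 0.49 and the inhibitory co-receptor Cd5 at -0.65. With the culture Cd2 (1.43) and Cd28 (0.54) rose and Zap70 (-0.38) fell, where 24.2% of all genes passed. The CD8+ list had 2 of 3 genes higher in Tfh-like, beside 14.3% of all genes, Crtam (2.09) and Themis (1.25, adjusted p = 0.176 with DESeq2). The B-cell list had 1 of 2 genes higher, Ebf1 (2.72), while Cd79a did not pass (log2 fold -0.85). Cd8b1, the other measured gene of the CD8+ list, did not pass for the culture (log2 fold 0.42, edgeR adjusted p = 0.225).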

How the data were processed

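RNA-seq was measured in 4 libraries, 1 per group. Per the file headers, the authors deposited a raw count and an FPKM value for each gene. Build mm10 and the tools MACS2, edgeR, Subread, featureCounts, Bowtie2 and Trim Galore 0.4.4 stand in the submitters' processing notes, without their roles. Count over FPKM gave an exon length equal to that of GENCODE vM21 (within 0.5 bases) for 91.6% of 11005 genes matched by symbol, all 3 TOX genes included. The tables hold 11027 genes, and the second-highest library of every gene had 0.658 CPM or more. Genes at low levels in all groups, or in all groups but 1, are therefore outside them.

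Counts were scaled by TMM (edgeR 4.0.16, R 4.3.3). The 10960 genes that reached 1 CPM in any library entered an additive model (culture plus virus) with edgeR's quasi-likelihood test, Benjamini-Hochberg adjustment over all of them and a threshold of 0.05. Folds in single pairs use a prior count of 2 and exact 95% intervals from the conditional binomial distribution, for counting error alone. A gene was called 2-fold apart at a log2 fold of at least 1 in size with an interval excluding 0. The difference between 2 folds has a delta-method interval. The fit was tested on simulated counts. Alternatives used other scalings, filters and prior counts, DESeq2 1.42.0, limma 3.58.1 (voom) and a correction for gene length.

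The members, lists and tests were chosen with earlier results of these data known. The rule for named genes takes the 3 members, the 3 genes nearest in pattern to each, and up to 2 higher and 2 lower members of each list that passed. Nfrkb was dropped from the HMG-box list because it is not known to carry that fold; it did not pass either test. Sequences are from RefSeq (GRCm38.p6), where 2 of the 3 members had an entry.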

Additional observations from a re-analysis of the deposited data

Results flagged for a closer look

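Tox2 and Tox4 went in opposite directions with the culture depending on the virus, with 1 library in each group, and the difference was not tested. Tox2 had a log2 fold of Tfh-like against Th0 of 2.59 with GFP and of -0.08 with the Tox2 virus. Viral and endogenous transcripts are counted together in the latter. Tox4 had 0.15 with GFP and -0.03 with the Tox2 virus, and the counting interval of the second value holds 0.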

How the results depend on the processing

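The calls for Tox (culture) and Tox2 (virus) passed under each of 9 alternatives of the additive test. Over these, the Tox culture estimate ran from -0.75 to -0.67 with adjusted p from 0.00098 to 0.00684, and the Tox2 virus estimate from 6.29 to 6.53 with adjusted p from 1.05e-06 to 0.00992. No alternative brought the other 4 estimates of the 3 genes past the threshold. Of these, the Tox virus estimate was -0.012 with the length trend removed, against 0.071, and the Tox4 culture estimate was -0.0096 with total counts only, against 0.060. Over all tested genes the culture median was -0.077 with total counts only, against -0.0079. The cause of either change of sign was not tested. With total counts only, the culture folds in single pairs were 0.053 for Tox4 with GFP, against 0.15, and -0.12 for Tox2 with the Tox2 virus, against -0.08, since that scaling leaves out the TMM factors. The genes that passed for the virus numbered 746, but 492 with DESeq2 and 1193 with total counts only, and for the culture 2656, but 1609 with DESeq2. The difference of the Tox2 virus folds between the cultures ran from -2.68 to -2.61 over 5 alternatives. Of 44 named list results, 6 lost their call under some alternative and 0 changed sign. Depth limits Tox2 in Th0 with GFP most, at 144 counts. No library could be left out in turn, since each group is 1 library. No paired analysis was possible because each group has 1 library and the labels give no replicate number.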
